A study of Mus musculus with 12 samples.

Results

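Diacylglycerol (DAG) is a lipid messenger made at the T cell membrane when the T cell receptor is engaged. Transcripts of 7 genes that make, sense or remove it were followed here, out of 14323 gene symbols counted in naïve CD8+ T cells. The 7 genes were chosen by name and by role, with earlier results of these data known. *Plcg1* encodes a phospholipase, *Rasgrp1* and *Prkcq* encode effectors, and *Dgka*, *Dgkz*, *Dgkd* and *Dgke* encode DAG kinases. All 7 symbols were found in the counts.

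Phospholipase C-γ1 (PLCγ1), the product of *Plcg1*, splits a membrane phosphoinositide into DAG and inositol trisphosphate, and the latter releases calcium. DAG brings the exchange factor RasGRP1 to the membrane, where it switches on Ras and the ERK kinases, and it recruits protein kinase C-θ (PKCθ, *Prkcq*), which feeds the NF-κB pathway. DAG kinases phosphorylate DAG to phosphatidic acid and thereby end its signal, and in T cells DGKα and DGKζ are best known as brakes on receptor signalling that are linked to anergy.

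For the experiment, TCRβ+CD8+ cells of naïve phenotype from the spleens of wild type mice, numbered 1 to 3, were sorted for each animal. There were 3 mice. The study as a whole used adult C57BL/6N mice, and the labels give no age, sex or strain of these 3. Wells had been coated with antibody, received 100000 sorted cells each and were harvested after 6 h. There were 4 groups, the unstimulated isotype group and the unstimulated anti-LAIR-1 group, and with anti-CD3 an isotype and an anti-LAIR-1 group, with 1 library per mouse in each and 12 libraries in all. Anti-CD3ε (clone 145-2C11) was used at 2.5 µg/ml and replaced by isotype antibody in the unstimulated wells, and anti-LAIR-1 (clone 2C7, made in-house) or its isotype control was also used at 2.5 µg/ml. LAIR-1 is an inhibitory collagen receptor, and the antibody takes the place of its ligand.

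The RNA was read near its 3′ end by an adapted CEL-seq protocol and deposited as counts per gene symbol. Library totals in mice 1, 2 and 3 were 2957929, 2304214 and 1781218 counts in the unstimulated isotype group, and 3547294, 3589194 and 3548881 in the unstimulated anti-LAIR-1 group. With anti-CD3 they were 3478294, 4883760 and 6555730 with isotype, and 7725545, 6204054 and 4889990 with anti-LAIR-1. Totals were thus larger with anti-CD3 in all but 1 library, and mouse 3 of the unstimulated isotype group was the shallowest. Levels are given as CPM (counts scaled to a common library total) after TMM normalization over the 12 libraries, so that each is a share of a library and does not measure RNA per cell. In these bulk samples, fewer cells of a type and less RNA per cell cannot be told apart. Mitochondrial transcripts took between 17.6% and 20.9% of the counts of unstimulated libraries and between 11.5% and 13.2% with anti-CD3, and the part of this difference in the results with anti-CD3 was not tested.

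The cells carried the transcripts of their label. All 12 markers of naïve CD8+ T cells were detected in each of the 12 libraries. The summed level of these markers was 7303, 7821 and 7097 CPM in the unstimulated isotype libraries of mice 1, 2 and 3 and 7454, 7789 and 7275 CPM in the unstimulated anti-LAIR-1 libraries. It was 2326, 2388 and 2526 CPM with anti-CD3 and isotype and 2921, 3102 and 3413 CPM with anti-CD3 and anti-LAIR-1. The sum of the naïve markers was therefore highest without anti-CD3 and lowest with anti-CD3 and isotype. Stimulated and unstimulated libraries did not overlap in this sum. Within the list, *Ccr7* went the other way between the stimulated groups, at 177 CPM with isotype and 155 CPM with anti-LAIR-1. Of 10 genes that report receptor stimulation, the most abundant with anti-CD3 was *Tnfrsf9* (4-1BB), which went from between 27.8 and 44.9 CPM in unstimulated libraries to between 1145 and 1341 CPM with anti-CD3. *Egr3*, of the same list, had 2 counts in all.

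Of the markers of other cell types, only *Cst3*, *Klrd1*, *Nkg7* and *Eomes* exceeded 10 CPM in the mean of any group. The summed level of 8 B cell markers lay between 4.15 and 10.8 CPM without anti-CD3 and between 1.89 and 4.53 CPM with it, with *Cd79b* the most abundant, and *Ms4a1*, *Ebf1* and *Blnk* had at most 3 counts over all libraries. For 5 markers of CD4 and regulatory T cells, led by *Ctla4*, the sum was between 1.90 and 11.3 CPM, and for 5 erythroid and platelet markers, led by *Itga2b*, it was between 0 and 5.56 CPM. The 10 myeloid and dendritic cell markers summed to between 50.03 and 65.1 CPM without anti-CD3 and between 28.7 and 45.4 CPM with it, nearly all of it *Cst3*, while *Cd14*, *Tyrobp* and *Flt3* had at most 3 counts in all. The 5 NK cell markers summed to between 486 and 557 CPM without anti-CD3 and between 279 and 313 CPM with it. Most of the unstimulated sum was *Klrd1*, at 454 CPM with isotype against 79.5 CPM with anti-CD3 and isotype. *Nkg7* was at 43.8 against 169.6 CPM and *Prf1* at 0.858 against 8.59 CPM in the same groups. With anti-CD3 and anti-LAIR-1, *Klrd1* was at 143 CPM and *Nkg7* at 106 CPM, so that both also differed between the stimulated groups. *Eomes* was between 26.7 and 43.6 CPM in the group means, and *Klrb1c* had at most 3 counts. The myeloid sum was lower with anti-CD3 without overlap, and so was the NK sum through *Klrd1* alone of these 3 genes, and the part of these markers in the results with anti-CD3 and with anti-LAIR-1 was not tested.

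*Plcg1*, the source of DAG in this pathway, had few counts in every library. It had 4, 1 and 5 counts in the unstimulated isotype libraries of mice 1, 2 and 3 and 8, 9 and 3 counts in the unstimulated anti-LAIR-1 libraries. With anti-CD3 it had 1, 0 and 0 counts with isotype and 3, 0 and 2 counts with anti-LAIR-1. Neighbouring groups in the order of mean CPM overlapped, although under each antibody no stimulated library reached an unstimulated one once scaled by depth. In raw counts the groups tied, at 1 with isotype and at 3 with anti-LAIR-1. A count of 0 allowed up to 3 counts, which was 0.635 and 0.482 CPM in anti-CD3 isotype mice 2 and 3 and 0.506 CPM in anti-CD3 anti-LAIR-1 mouse 2. Pooled over the group, 1 count in 14917784 with anti-CD3 and isotype was 0.0670 CPM without TMM (exact Poisson 95% interval 0.00170 to 0.373), against 1.42 (0.681 to 2.61) for the unstimulated isotype group. The pooled values with anti-LAIR-1 were 0.266 (0.0863 to 0.620) with anti-CD3 and 1.87 (1.14 to 2.89) without it. These intervals cover counting error only and not the spread between mice. *Plcg1* passed the filter on low counts in none of the comparisons, so 6 of the 7 genes were tested. The 3′ end of *Plcg1* lies within *Zhx3*, a gene on the opposite strand that had 24 counts in all. The sources used here do not say whether the reference used for counting covers this end, so the few counts do not show that the transcript was rare.

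*Rasgrp1*, whose product activates Ras, had levels of 191, 191 and 178 CPM in the unstimulated isotype libraries of mice 1, 2 and 3 and of 187, 199.6 and 188 CPM in the unstimulated anti-LAIR-1 libraries. With anti-CD3 the levels were 38.3, 45.5 and 46.3 CPM with isotype and 44.4, 50.8 and 49.9 CPM with anti-LAIR-1. Every library with anti-CD3 was thus far below every unstimulated library, and the antibody groups overlapped within each state. Within mice 1, 2 and 3, *Rasgrp1* with anti-CD3 was higher with anti-LAIR-1 by 0.21, 0.16 and 0.11 in log2 CPM. *Prkcq*, which encodes the PKC isoform of the immunological synapse, was at 84.2, 101 and 104 CPM in the unstimulated isotype group and at 89.9, 96.4 and 90.01 CPM in the unstimulated anti-LAIR-1 group. It was at 35.6, 39.4 and 36.3 CPM with anti-CD3 and isotype and at 35.1, 42.5 and 47.6 CPM with anti-CD3 and anti-LAIR-1. Here too the stimulated libraries lay below all unstimulated ones, with overlap between isotype and anti-LAIR-1.

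*Dgka*, which encodes the calcium-responsive kinase DGKα, had 1423, 1649.6 and 1547 CPM in the unstimulated isotype libraries of mice 1, 2 and 3 and 1299, 1611 and 1444 CPM in the unstimulated anti-LAIR-1 libraries. With anti-CD3 and isotype it had 129.5, 119 and 136 CPM. In the anti-CD3 anti-LAIR-1 group the values were 287, 267 and 356 CPM. The unstimulated groups overlapped each other, every stimulated library was lower than these, and each anti-CD3 anti-LAIR-1 library was higher than each anti-CD3 isotype library. As a percentage of the unstimulated library of the same mouse and antibody, *Dgka* was at 9.10%, 7.24% and 8.81% after anti-CD3 with isotype and at 22.1%, 16.6% and 24.7% after anti-CD3 with anti-LAIR-1. These shares did not overlap, and *Dgka* kept less of its level than *Rasgrp1* did with isotype (between 20.1% and 26.0%).

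*Dgkz* encodes DGKζ, the isoform that attenuates Ras signalling below the receptor. Its levels in mice 1, 2 and 3 were 231, 207 and 201 CPM in the unstimulated isotype group, 241, 215 and 199.8 CPM in the unstimulated anti-LAIR-1 group, 108, 146 and 117 CPM with anti-CD3 and isotype and 136, 145 and 159 CPM with anti-CD3 and anti-LAIR-1. All stimulated libraries were below all unstimulated ones, and the 2 stimulated groups overlapped through mouse 2 of the isotype group. *Dgkd*, which encodes DGKδ, lay between 51.1 and 52.9 CPM, 54.3 and 59.3 CPM, 42.4 and 50.1 CPM, and 39.7 and 46.8 CPM in the same 4 groups. Only the last pair of these groups overlapped, although the whole range of *Dgkd* was narrow. *Dgke*, which encodes DGKε, had between 7 and 30 counts per library, and its level in the unstimulated isotype group was 4.62, 7.33 and 16.1 CPM in mice 1, 2 and 3, with mouse 3 set apart. The other groups of *Dgke* lay between 4.15 and 5.07 CPM, 2.11 and 3.81 CPM, and 3.10 and 3.71 CPM in the same order.

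**Figure D1:**
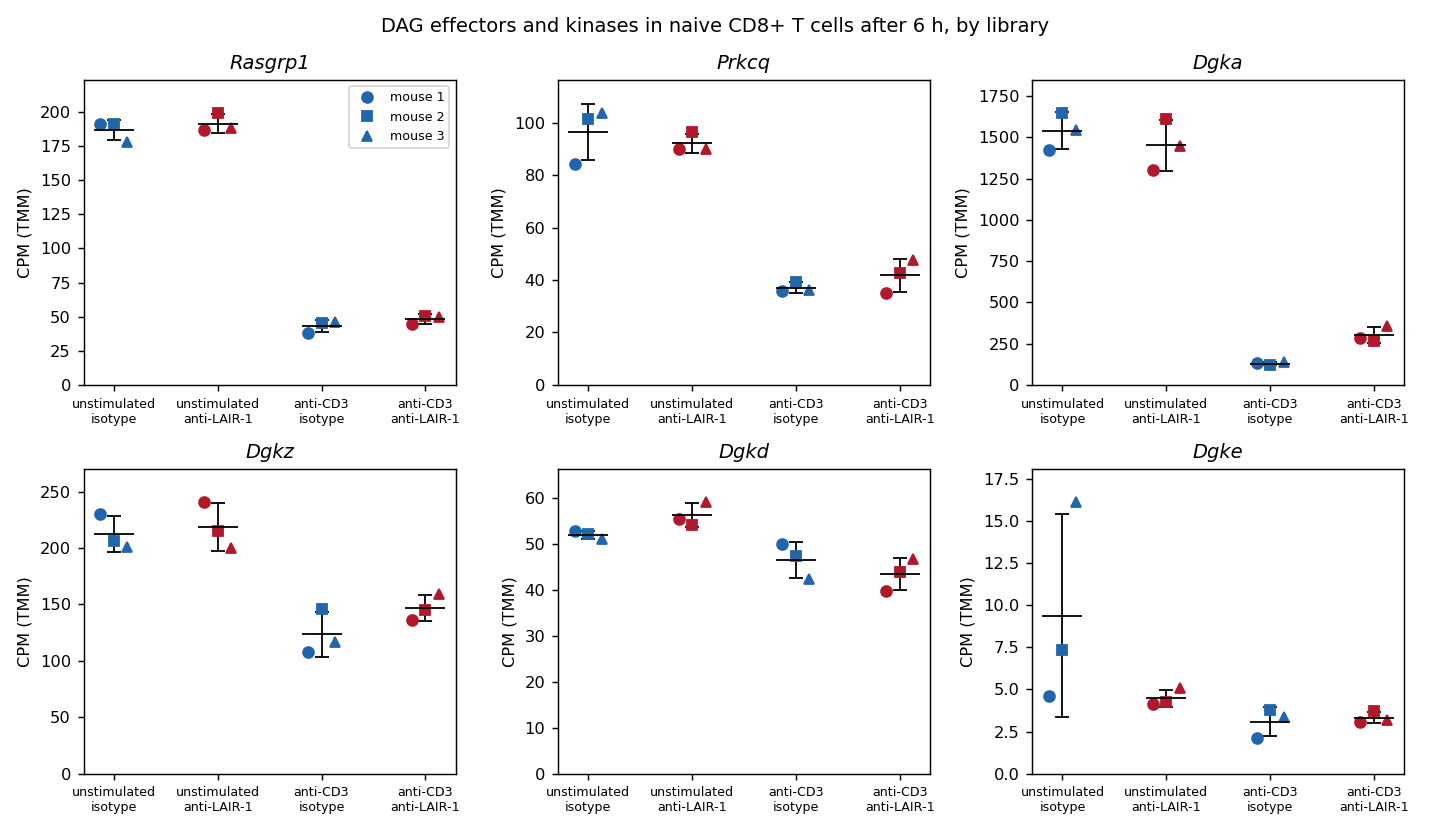
Level of 6 of the genes in CPM after TMM normalization (linear axis from 0) in each of the 4 groups, with 1 point per library, the marker shape giving the mouse, blue for isotype and red for anti-LAIR-1, and lines for the mean and SD (n = 3). *Dgka* is at 1299 CPM or more in every unstimulated library, between 119 and 136 CPM with anti-CD3 and isotype, and between 267 and 356 CPM with anti-CD3 and anti-LAIR-1.

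With isotype in place of anti-LAIR-1, anti-CD3 lowered *Dgka*, *Rasgrp1*, *Prkcq*, *Dgkz* and *Dgke*, so that 5 of the 6 tested genes passed the threshold. Among all genes 6198 of 8690 tested genes did (71.3%), 3063 of them higher and 3135 lower, so a call by itself was common in this comparison. *Dgka* was 12.3-fold lower, with a log2 fold change of -3.62 (SE 0.0959, n = 3 per group, edgeR quasi-likelihood test, Benjamini-Hochberg adjusted p = 3.84e-19), and 203 of the 8690 genes had a lower log2 fold change. The log2 fold changes of the effectors were -2.13 for *Rasgrp1* (SE 0.115) and -1.41 for *Prkcq* (SE 0.129), with adjusted p = 7.32e-14 and 1.06e-09 in the edgeR quasi-likelihood test, adjusted after Benjamini-Hochberg. *Dgkz* was 1.76-fold lower, at a log2 fold change of -0.82 (SE 0.114; edgeR quasi-likelihood test, Benjamini-Hochberg adjusted p = 9.3e-07). All of these were lower in 3 of 3 mice. *Dgkd* had a log2 fold change of -0.20 (SE 0.135) and was not called (edgeR quasi-likelihood test, Benjamini-Hochberg adjusted p = 0.179). *Dgke* was called at -1.50 (SE 0.420; edgeR quasi-likelihood test, Benjamini-Hochberg adjusted p = 0.00297), but without mouse 3 of the unstimulated isotype group it was at -0.92 with an adjusted p of 0.0703.

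With anti-LAIR-1 present, anti-CD3 lowered *Dgka*, *Rasgrp1*, *Prkcq*, *Dgkz* and *Dgkd*, again 5 of 6 tested genes, against 6541 of 9000 over the whole table (72.7%). This comparison shares no library with the one under isotype. The log2 fold changes were -2.27 for *Dgka* (SE 0.0984), -1.99 for *Rasgrp1* (SE 0.0931), -1.16 for *Prkcq* (SE 0.116) and -0.59 for *Dgkz* (SE 0.0904), with adjusted p = 1.81e-13, 4.92e-13, 3.2e-08 and 1.01e-05 in the edgeR quasi-likelihood test, adjusted after Benjamini-Hochberg. *Dgka* was thus 4.82-fold lower and *Rasgrp1* 3.99-fold lower. *Dgkd* was called at -0.39 (SE 0.114; edgeR quasi-likelihood test, Benjamini-Hochberg adjusted p = 0.00527), though not in DESeq2 with the mouse as a block (-0.33, adjusted p = 0.121). *Dgke* was at -0.44 (SE 0.323) and was not called (edgeR quasi-likelihood test, Benjamini-Hochberg adjusted p = 0.232). Upper quartile normalization moved the median log2 fold change of all genes by -0.18 under isotype and by -0.21 in the comparison under anti-LAIR-1. The direction of the 6 tested genes was the same with it, and *Dgkd* with isotype was then called (-0.38, edgeR quasi-likelihood test, Benjamini-Hochberg adjusted p = 0.0152).

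The comparison the experiment was built for, anti-LAIR-1 compared with isotype under anti-CD3, changed *Dgka* among the 6 tested genes. Among all genes 507 of 8800 genes were called (5.76%), 343 higher and 164 lower. *Dgka* was 2.35-fold higher with anti-LAIR-1, at a log2 fold change of 1.23 (SE 0.0983, n = 3 per group, edgeR quasi-likelihood test, Benjamini-Hochberg adjusted p = 1.62e-06). Within mice 1, 2 and 3 the difference in log2 CPM was 1.14, 1.16 and 1.38, and 63 of the 8800 genes had a higher log2 fold change. The level with anti-LAIR-1 was still far below that of unstimulated cells. Both groups also enter the comparisons with unstimulated cells above, so their values are not independent of those. *Dgkz* had a log2 fold change of 0.23 (SE 0.103; edgeR quasi-likelihood test, Benjamini-Hochberg adjusted p = 0.227), which became 0.37 with an adjusted p of 0.0459 without mouse 2 of the anti-CD3 isotype group. The other genes were at 0.14 (*Rasgrp1*, SE 0.114), 0.15 (*Prkcq*, SE 0.129), -0.10 (*Dgkd*, SE 0.116) and 0.05 (*Dgke*, SE 0.342), and their adjusted p in the edgeR quasi-likelihood test, adjusted after Benjamini-Hochberg lay between 0.579 and 0.956. The number of genes called over the whole table was 293 without anti-CD3 isotype mouse 2. It was 314 without anti-CD3 anti-LAIR-1 mouse 2 and 334 without anti-CD3 anti-LAIR-1 mouse 3. Leaving out any other of the 6 libraries gave between 384 and 427.

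Without anti-CD3, none of the 6 tested genes was called for anti-LAIR-1 compared with isotype, as for 0 of 8770 genes over the whole table (0%) in edgeR. At an unadjusted p under 0.05 there were 384 genes (4.38%), and DESeq2 called 0 genes with 198 at an unadjusted p under 0.05. *Dgka* had a log2 fold change of -0.09 (SE 0.0859), *Rasgrp1* of 0.03 (SE 0.0941), *Prkcq* of -0.06 (SE 0.117), *Dgkz* of 0.04 (SE 0.0995) and *Dgkd* of 0.11 (SE 0.134). *Dgke* had the widest estimate, at -0.98 (SE 0.409), with 62 counts in the unstimulated isotype group, 30 of them in mouse 3, and 50 counts in the unstimulated anti-LAIR-1 group. Without unstimulated isotype mouse 3 the log2 fold change of *Dgke* was -0.39. Each of the 6 had an adjusted p of 0.997 in the edgeR quasi-likelihood test, adjusted after Benjamini-Hochberg.

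Whether anti-LAIR-1 acted differently with and without anti-CD3 was tested as the interaction over all 12 libraries. Of 9223 genes, 191 were called (2.07%), 168 with a positive and 23 with a negative interaction, and *Dgka* was the only 1 of the 6 tested genes among them. Its interaction was 1.32 on the log2 scale (SE 0.139, edgeR quasi-likelihood test, Benjamini-Hochberg adjusted p = 2.8e-06), and within mice 1, 2 and 3 it was 1.28, 1.19 and 1.48. The interactions of the others were 0.11 (*Rasgrp1*, SE 0.142), 0.22 (*Prkcq*, SE 0.172), 0.20 (*Dgkz*, SE 0.151), -0.21 (*Dgkd*, SE 0.168) and 1.04 (*Dgke*, SE 0.562), with an adjusted p between 0.490 and 0.832 in the edgeR quasi-likelihood test, adjusted after Benjamini-Hochberg. The estimate of *Dgke* had a much wider error than that of *Dgka*, was not called and was 0.45 without unstimulated isotype mouse 3. Over the whole table, 118 genes were called without unstimulated isotype mouse 2, and 125 and 121 without unstimulated anti-LAIR-1 mouse 1 and 3. The number was 125 and 110 without anti-CD3 isotype mouse 1 and 2, and 104 without anti-CD3 anti-LAIR-1 mouse 3. Leaving out any other of the 12 libraries gave between 146 and 186.

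**Figure D2:**
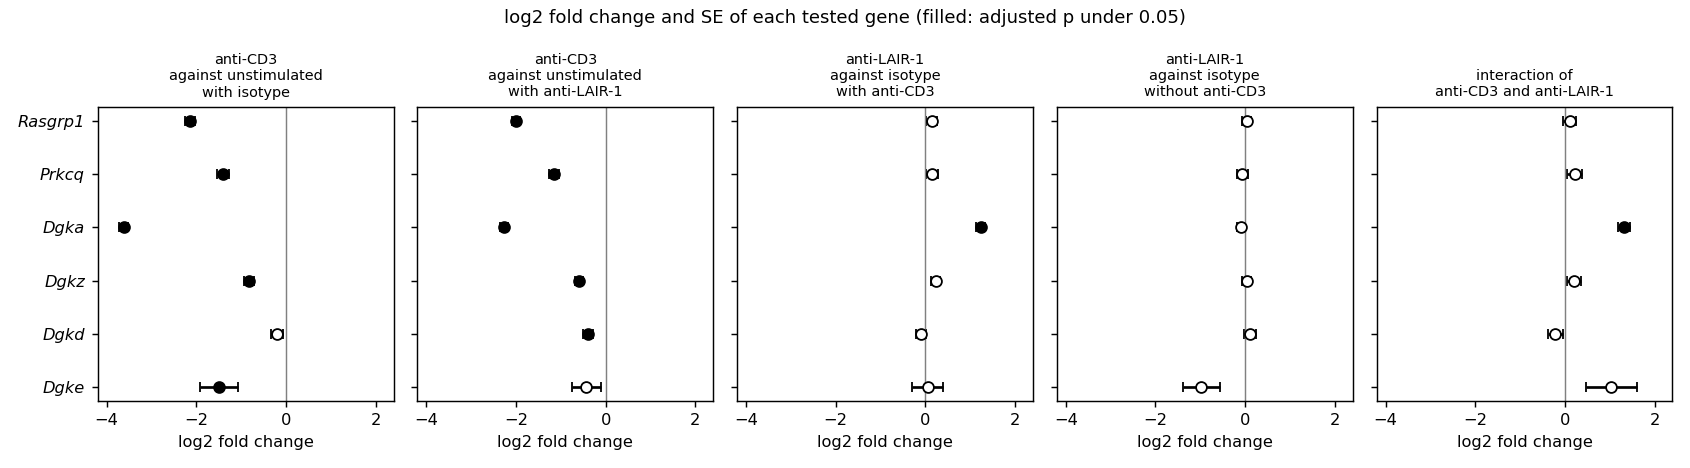
The log2 fold change of the 6 tested genes in the 4 comparisons of 2 groups, and their interaction, with SE as error bars; filled points have an adjusted p under 0.05 (edgeR quasi-likelihood test, Benjamini-Hochberg adjusted). *Dgka* lies at -3.62 and -2.27 with anti-CD3, at 1.23 for anti-LAIR-1 with anti-CD3, at -0.09 without it and at 1.32 for the interaction.

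The order of the group levels was the same for *Rasgrp1*, *Prkcq*, *Dgka* and *Dgkz* as far as groups were separated. For each of them the unstimulated groups overlapped at the top and the anti-CD3 isotype group had the lowest mean. The anti-CD3 anti-LAIR-1 mean was above it, at 48.4 against 43.4 CPM for *Rasgrp1*, 41.8 against 37.1 CPM for *Prkcq* and 147 against 124 CPM for *Dgkz*, each with overlapping libraries. For *Dgka* it was 303 ± 46.9 against 128 ± 8.48 CPM (SD, n = 3) without overlap. *Dgkd* had its lowest mean with anti-CD3 and anti-LAIR-1 (43.5 CPM), overlapping anti-CD3 and isotype (46.6 CPM).

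Other genes of the pathway were taken from lists by function, with the 7 genes above left out. Of 105 such genes in the table, 78 were tested for anti-LAIR-1 compared with isotype under anti-CD3, and 13 were called (16.7%, against 5.76% of all tested genes), 10 higher and 3 lower with anti-LAIR-1. The lists were drawn up with earlier results of these data known, so the share called does not test the pathway. The median log2 fold change of the tested list genes was 0.02, against 0.00473 over all tested genes. Without anti-CD3, 0 of 76 were called, as over the whole table in edgeR. With anti-CD3 against unstimulated, 19 were higher and 36 lower of 76 with isotype, and 22 higher and 36 lower of 76 with anti-LAIR-1. These 55 and 58 calls are 72.4% and 76.3% of the list genes, close to the 71.3% and 72.7% called among all genes, and the same shares of all genes apply to each list below. The medians were -0.28 and -0.30, against -0.03 over all tested genes in both comparisons. With upper quartile scaling 15 list genes were higher and 41 lower in each comparison, and among all genes 2637 were higher and 3616 lower with isotype and 2699 and 3956 with anti-LAIR-1.

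Among enzymes and effectors closest to the 7 genes, no other DAG kinase passed the filter on low counts. *Dgkg*, *Dgkh* and *Dgkq* had between 10 and 23 counts over the 12 libraries. *Dgkg* had 0 counts in each unstimulated library and between 1 and 7 in each with anti-CD3, and it was called for anti-CD3 with isotype only when no filter was set. Of the other phospholipases C, *Plcb2*, which acts below G protein-coupled receptors, was lower with anti-CD3 and isotype (log2 fold change -2.44, SE 0.310) and higher with anti-LAIR-1 when anti-CD3 was present (1.19, SE 0.301), a call lost without anti-CD3 isotype mouse 1, 2 or 3 or anti-CD3 anti-LAIR-1 mouse 2. *Rasgrp2*, the only other RasGRP gene tested and an activator of Rap, was at 49.05 ± 3.71 CPM in unstimulated isotype cells, 2.09 ± 0.636 CPM with anti-CD3 and isotype and 4.76 ± 0.471 CPM with anti-CD3 and anti-LAIR-1 (SD, n = 3). Its log2 fold change was -4.64 for anti-CD3 with isotype (SE 0.251) and 1.24 for anti-LAIR-1 with anti-CD3 (SE 0.354). The latter call of *Rasgrp2* was lost on leaving out any 1 of the 6 libraries (edgeR quasi-likelihood test, Benjamini-Hochberg adjusted p between 0.0598 and 0.199). Of 7 other DAG-responsive kinases, 5 were lower with anti-CD3 under isotype and 4 under anti-LAIR-1, against 71.3% and 72.7% of all genes called. *Prkd2*, the protein kinase D of T cells that PKC activates, fell by 2.38 (SE 0.129) and 1.77 (SE 0.111) on the log2 scale. With anti-CD3 present, *Prkd2* (0.57, SE 0.132) and *Prkch* (0.40, SE 0.0814), which encodes PKCη, were higher with anti-LAIR-1, *Prkd2* not without anti-CD3 isotype mouse 3 or anti-CD3 anti-LAIR-1 mouse 1. *Unc13d* was the only gene tested of a list drawn up for other DAG effectors, although its product, a vesicle priming factor, lacks the DAG-binding C1 domain of its relatives. It was 3.52-fold lower with anti-CD3 and isotype and 2.26-fold lower with anti-CD3 and anti-LAIR-1, and its log2 fold change of 0.45 for anti-LAIR-1 with anti-CD3 was not called.

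In lipid metabolism around DAG, 3 of 14 tested genes were higher and 7 lower with anti-CD3 under isotype, and 5 were higher and 6 lower under anti-LAIR-1 (all genes called, 71.3% and 72.7%). *Pitpnc1*, which encodes a phosphatidylinositol transfer protein, was at 312 ± 13.8 CPM in unstimulated isotype cells, 33.3 ± 4.79 CPM with anti-CD3 and isotype and 60.3 ± 7.85 CPM with anti-CD3 and anti-LAIR-1 (SD, n = 3). It was higher with anti-LAIR-1 under anti-CD3 (log2 fold change 0.86, SE 0.134), and its interaction was also called (0.87, SE 0.153). *Pip5k1a*, whose product makes the substrate of PLCγ1, was lower with anti-LAIR-1 under anti-CD3 (-0.44, SE 0.127), but the call was lost without any of the 6 libraries other than anti-CD3 isotype mouse 3. *Dgat2*, which encodes an enzyme that turns DAG into triglyceride, had at most 2 counts in any unstimulated library and between 84 and 180 counts in each library with anti-CD3.

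Among 13 adaptors and kinases that act on PLCγ1, 4 were higher and 6 lower with anti-CD3 under isotype, and 5 higher and 6 lower under anti-LAIR-1, where 71.3% and 72.7% of all genes were called. *Lcp2* (SLP-76) was 3.62-fold higher and *Fyb* (ADAP) 12.2-fold lower under isotype. *Lat* (0.26, SE 0.0668) and *Fyb* (0.63, SE 0.171) were higher with anti-LAIR-1 under anti-CD3. The call of *Fyb* was lost on leaving out any 1 of the 6 libraries, and that of *Lat* on leaving out any but anti-CD3 isotype mouse 2.

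In the Ras and ERK branch, 5 of 18 tested genes were higher and 7 lower with anti-CD3 under isotype, and 5 higher and 8 lower under anti-LAIR-1, with 71.3% and 72.7% of all genes called. *Rasa3*, which encodes a GTPase-activating protein that turns Ras and Rap off, was at 295, 433 and 285 CPM in unstimulated isotype libraries of mice 1, 2 and 3, at 14.8, 9.95 and 13.7 CPM with anti-CD3 and isotype and at 27.9, 30.2 and 48.2 CPM with anti-CD3 and anti-LAIR-1. No library of these 3 groups overlapped another group. Its log2 fold change was -4.76 for anti-CD3 with isotype (SE 0.171) and 1.45 for anti-LAIR-1 with anti-CD3 (SE 0.211), and its interaction was 1.73 (SE 0.256). *Rasal3*, another Ras GTPase-activating protein gene, had 0.61 (SE 0.128) for anti-LAIR-1 with anti-CD3, not called without anti-CD3 isotype mouse 3, and an interaction of 0.67 (SE 0.162). *Spred1*, an inhibitor of the pathway, was higher with anti-CD3, 3.94-fold under isotype.

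In the NF-κB branch, 5 of 12 genes were higher and 4 lower with anti-CD3 under each antibody (all genes called, 71.3% with isotype and 72.7% with anti-LAIR-1). *Malt1*, which encodes a protease of this branch, was 2.34-fold higher with anti-CD3 and isotype. *Malt1* was the only gene of this branch called for anti-LAIR-1 with anti-CD3, where it was lower (-0.60, SE 0.146), a call lost without anti-CD3 isotype mouse 2 or 3 or anti-CD3 anti-LAIR-1 mouse 1. In the calcium branch, 2 of 8 tested genes were higher and 4 lower with anti-CD3 under isotype, and 2 higher and 5 lower under anti-LAIR-1, beside the same shares of all genes. The calcium channel gene *Orai2* was 10.7-fold lower under isotype and was the only called gene of that branch for anti-LAIR-1 with anti-CD3 (0.83, SE 0.190), though not without anti-CD3 anti-LAIR-1 mouse 2.

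The 13 calls for anti-LAIR-1 with anti-CD3 had an adjusted p between 0.000405 (*Rasa3*) and 0.0486 (*Rasgrp2* and *Pip5k1a*) in the edgeR quasi-likelihood test, adjusted after Benjamini-Hochberg. *Rasa3* and *Pitpnc1* were among those called in each of the 15 alternatives to this comparison, whereas *Prkch* lost the call in 1, *Orai2* in 2, *Rasal3* in 3, *Malt1* and *Prkd2* in 4, *Lat* in 7, *Fyb* in 8 and *Pip5k1a* in 9. *Plcb2* lost it in 5 of the 14 that tested it and *Rasgrp2* in 7 of 11. Without anti-CD3 isotype mouse 1, 2 or 3 the number called was 8, 8 and 6, and among all genes 384, 293 and 391 in place of 507. Without anti-CD3 anti-LAIR-1 mouse 1, 2 or 3 it was 8, 7 and 9, and among all genes 427, 314 and 334. DESeq2 with the mouse as a block called 4, and 224 among all genes. Of the 4 interactions, those of *Rasa3* and *Pitpnc1* were called in each of 20 alternatives and that of *Rasal3* in 13, with the call lost on thinning or on leaving out any of 6 libraries (unstimulated isotype mouse 1 or 2, unstimulated anti-LAIR-1 mouse 1, anti-CD3 isotype mouse 2 or 3, anti-CD3 anti-LAIR-1 mouse 3).

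For *Rasgrp1*, *Prkcq*, *Dgka*, *Dgkz* and *Dgkd*, the genes most like each over the 12 libraries were sought by Pearson correlation of log2 CPM among 6399 genes with at least 50 counts per library on average. *Plcg1* and *Dgke*, at 20 counts per library or fewer on average, were left out. For *Dgka* they were *Shisa5*, *Cnn2* and *Tuba1a*, with r of 0.999, 0.998 and 0.997. *Shisa5* was at 1905 CPM in unstimulated isotype cells, 446 CPM with anti-CD3 and isotype and 748 CPM with anti-CD3 and anti-LAIR-1. For *Rasgrp1* the closest were *Pde3b*, *Cox7a2l* and *Numa1* (r of 0.999, 0.998 and 0.997), and for *Prkcq* they were *Gimap8*, *Zbtb4* and *Tbxa2r* (0.997, 0.994 and 0.993). *Dgkz* was closest to *Ulk2*, *Dirc2* and *Cdk2ap2* (0.981, 0.980 and 0.979) and *Dgkd* to *Hes6*, *Scai* and *Camk1d* (0.926, 0.923 and 0.914). Among the genes themselves r was 0.984 between *Rasgrp1* and *Prkcq* and 0.967 between *Rasgrp1* and *Dgka*. The 12 libraries fall into an unstimulated and a stimulated set that also differ in depth, and any gene that follows this split correlates highly with another.

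In the GENCODE M21 annotation of GRCm38, 4 of the 7 genes lie on chromosome 2, which are *Prkcq* (chr2:11172108-11301222), *Dgkz* (chr2:91932824-91975864), *Rasgrp1* (chr2:117279993-117343001) and *Plcg1* (chr2:160731300-160775760). *Dgka* is at chr10:128720134-128744855 on the minus strand, *Dgkd* at chr1:87853287-87945180 and *Dgke* at chr11:89035179-89066850. All 7 are protein coding. The 3′ end of *Dgka*, near which its reads were taken, overlaps the end of *Pmel* on the opposite strand, which had 5 counts in all. That of *Dgkd* overlaps *Usp40*, which had 349 counts, and whether counting kept strands apart is not given in the sources used here.

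Because 4 of the genes were lower together with anti-CD3, the windows from 250 bases before to 50 bases after their start sites were searched in RefSeq promoters of GRCm38.p6. There were 11 windows for the 7 genes, 4 of them for *Dgka*. On both strands, 3 motifs were sought: GTAAACA of FOXO factors, which keep naïve T cells quiescent, GCGTGGGCG of EGR factors, which receptor signals induce, and the E-box CACGTG, which Myc can bind. Of 32851 promoters searched, 3.65% held the first, 0.612% the second and 7.15% the E-box. In the 11 windows 1 match was found, an E-box that starts at position -17 before the fourth *Dgka* start. The 250 bases before that start (chr10:128737613-128737862, minus strand) are printed with the match in capitals. Beside them are the 250 bases before the second start (chr10:128744077-128744326, minus strand), which hold no match. Neither printed stretch has an annotated exon under it, and both starts lie within the annotated span of *Dgka*. Reads near the 3′ end do not tell which start was used.
Dgka, before the second start: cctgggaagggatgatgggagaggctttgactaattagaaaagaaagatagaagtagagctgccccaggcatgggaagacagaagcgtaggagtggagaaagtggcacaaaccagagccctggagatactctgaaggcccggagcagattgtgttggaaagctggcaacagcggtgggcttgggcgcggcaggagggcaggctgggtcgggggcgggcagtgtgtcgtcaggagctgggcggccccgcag
Dgka, before the fourth start: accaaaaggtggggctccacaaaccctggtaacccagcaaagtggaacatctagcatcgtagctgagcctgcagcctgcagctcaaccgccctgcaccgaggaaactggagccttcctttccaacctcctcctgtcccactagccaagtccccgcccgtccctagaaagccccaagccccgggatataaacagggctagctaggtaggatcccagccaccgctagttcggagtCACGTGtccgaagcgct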

How the data were processed

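The authors aligned read 2 of their CEL-seq libraries to the mm10 transcriptome with BWA MEM, kept only reads with a single best position, and deposited raw counts per gene symbol from their MapAndGo script. Whether reads of 1 molecule were collapsed is not given in the sources used here, so intervals and limits of detection cover counting error only. The 7 genes, the pathway lists and the marker lists were chosen with earlier results of these data known.

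Groups of 3 libraries were compared with edgeR 4.0.16 in R 4.3.3, with TMM scaling and the filterByExpr filter. The quasi-likelihood F-test was used at 0.05, and Benjamini-Hochberg adjustment took in every tested gene. The 6 libraries of each pair of groups entered 1 fit, and the interaction used all 12. The SE is the log2 fold change divided by the square root of F. Log2 CPM used a prior count of 2. With 3 libraries against 3 an exact permutation test cannot go below p = 0.1, so none was used. Fits were tested on simulated counts with few genes changed and no mouse effect. With anti-CD3, 71.3% and 72.7% of all genes were called, so that check does not cover such a setting.

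Alternatives were DESeq2 1.42.0 alone or with mouse as a replicate block, edgeR with that block, other scalings and filters, thinned libraries, all 12 libraries in 1 fit and each library left out. Counts of pathway genes under these were added after the data were seen, as was the fit of *Dgke* without 1 library. Libraries of 1 number come from 1 mouse per the labels; deviations from the group means correlated with a mean r of 0.0432 over 18 same-mouse pairs (between -0.00682 and 0.0882). No 2 libraries were copies.

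Pathway genes were named from those called with the largest changes, at most 3 per list and comparison, with any needed to account for a count of 5 or fewer. Likeness was by correlation, for genes over 20 counts per library on average. Promoters of chromosome 18 were left out of the motif search.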

Additional observations from a re-analysis of the deposited data

Results flagged for a closer look

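The effect of anti-LAIR-1 on *Dgka* differed with and without anti-CD3. By the interaction over all 12 libraries the difference was 1.3222 on the log2 scale (SE 0.139, edgeR quasi-likelihood test, Benjamini-Hochberg adjusted p = 2.8e-06). With anti-CD3, *Dgka* was higher with anti-LAIR-1 in 3 of 3 mice (differences in log2 CPM of 1.14, 1.16 and 1.38), and without anti-CD3 it was lower in 3 of 3 (-0.13, -0.03 and -0.10), the latter within the spread of the unstimulated libraries.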

How the results depend on the processing

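*Dgka* kept its direction and its call in each of the 15 alternatives for anti-LAIR-1 with anti-CD3 (log2 fold change between 1.10 and 1.31, highest adjusted p 2.99e-05) and in each of 20 for the interaction (between 1.19 and 1.40, highest adjusted p 3.69e-05). *Dgka*, *Rasgrp1*, *Prkcq* and *Dgkz* kept theirs in each of 15 alternatives for anti-CD3, under either antibody. Leaving out 1 library, the number of the 7 genes called for anti-LAIR-1 with anti-CD3 was between 1 and 2, *Dgkz* being the second. For anti-CD3 with isotype the number was between 4 and 6 over the alternatives, and it was 4 with at least 10 counts in every library and with thinned libraries, where *Dgke* was not tested, and without unstimulated isotype mouse 3, where *Dgke* was tested and lost its call (-0.92). *Plcg1* was called for anti-CD3 without a filter (-3.69 with isotype and -2.51 with anti-LAIR-1), in DESeq2 (-4.195 and -2.66) and, with anti-LAIR-1, without unstimulated anti-LAIR-1 mouse 3 (-2.95).

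Genes called over the whole table for anti-LAIR-1 with anti-CD3 numbered 224 in DESeq2 with the replicate block, 301 in thinned libraries and between 293 and 427 with 1 library left out. With all 12 libraries in 1 fit, 79.8% of its calls were higher, against 67.7%. Without anti-CD3 there were 5 without a filter and between 0 and 1 with 1 library left out. The interaction gave 111 in thinned libraries, which hold fewer counts, and between 104 and 186 with 1 library left out. Apart from these counts, the cause of the changes was not tested. The edgeR fit with the mouse as replicate block called 549, 0, 6139, 6477 and 218 genes (interaction last), and 1, 0, 5, 5 and 1 of the 7; with the block DESeq2 lost the calls of *Plcg1* and, with anti-LAIR-1, of *Dgkd*.

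Reversed signs were seen on leaving out 1 library in estimates that were not called. *Dgke* under anti-CD3, for anti-LAIR-1, ranged from -0.11 (no anti-CD3 isotype mouse 1) to 0.20 (no anti-CD3 isotype mouse 2), with -0.03 without anti-CD3 anti-LAIR-1 mouse 2. *Dgkz* in unstimulated cells ranged from -0.0387 (no anti-LAIR-1 mouse 1) to 0.103 (no isotype mouse 1), with -0.0025 without isotype mouse 3. At these depths 3 counts were between 0.404 and 1.61 CPM, which limited *Plcg1*, while every library of *Dgke* was above it.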
